A study of Sorghum bicolor with 12 samples.

Results

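LHY (Sobic.007G047400), TOC1 (Sobic.004G216700) and GIGANTEA or GI (Sobic.003G040900) are circadian clock genes of sorghum (Sorghum bicolor). They were chosen by identifier, and all 3 are listed among the 20818 genes of the count table with a count in each of 12 root libraries. The digits before the G of the identifiers place LHY on chromosome 7, TOC1 on chromosome 4 and GI on chromosome 3. The table holds no gene names, so the link from identifier to name comes from the definition of the set and was not checked against an annotation.

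The plant circadian clock is a set of genes that repress and activate each other, so that their transcripts peak at different times of day. In Arabidopsis LHY encodes a MYB-type repressor whose transcript peaks around dawn. TOC1 encodes a pseudo-response regulator that peaks in the evening and represses LHY, and LHY in turn represses TOC1 and GI. The GI protein stabilises the F-box photoreceptor ZEITLUPE and takes part in the daylength control of flowering.

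Messenger RNA was measured by stranded paired-end sequencing in roots of mature plants, in 4 groups of 3 biological replicates. NIL-bri1-72 was sampled in drought, at 30% of field capacity, and in water, and so was NIL-WT-72. Both lines are BC2F3 plants of EMS-mutagenized descent that the study assumed to be near isogenic, and NIL-bri1-72 carries a base change in the extracellular region of SbBRI1, the brassinosteroid receptor. With 1 line per genotype, the receptor change and other segments that may differ between the lines cannot be told apart. Harvest hours were not stated in the labels, and the root label could not be checked against marker genes because the identifiers carry no names.

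The total count per library was 18640601 to 33296273. Counts of LHY were 452 to 1094 per library, those of TOC1 1020 to 2538 and those of GI 22224 to 36503. The relative counting error, 1 divided by the square root of the count, was thus 3.02% to 4.70% for LHY, 1.98% to 3.13% for TOC1 and 0.523% to 0.671% for GI. It covers counting error only, since reads without molecular identifiers are not independent molecules. Over all genes, replicate 1 of the NIL-WT-72 water group deviated most from its group mean, by 0.396 log2 units (root mean square), and the other 11 libraries deviated by 0.183 to 0.339.

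Neither a drought effect nor a difference between the lines passed the test for LHY, TOC1 or GI. Of the 7 contrasts of group means, 3 compared drought with water (in each line and averaged), 3 compared NIL-bri1-72 with NIL-WT-72 (in each regime and averaged), and 1 was the interaction. Among the 21 estimates for these genes, 0 had an adjusted p below 0.05 by the edgeR quasi-likelihood test with Benjamini-Hochberg adjustment over 20818 genes. The lowest adjusted p was 0.568 by edgeR, 0.592 by DESeq2 and 0.583 by limma voom. The estimated fold changes lay between 0.809 and 1.23. In bulk roots, fewer cells that express a gene and less of its RNA per cell cannot be told apart.

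An unadjusted edgeR p below 0.05 was reached by 0 of the 21 estimates. Over all genes such a p was reached by 7.29% for drought in NIL-bri1-72, 9.45% for drought in NIL-WT-72 and 14.9% for averaged drought. For the line difference it was reached by 2.47% in drought, 5.24% in water and 6.49% on average, and for the interaction by 1.11%. The clock genes were thus not among the genes past this lenient bound. At such shares few of 21 estimates would pass for any genes, and these estimates are not independent, since the contrasts share group means. The absence of the clock genes therefore does not set them apart from other genes.

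**Figure D1:**
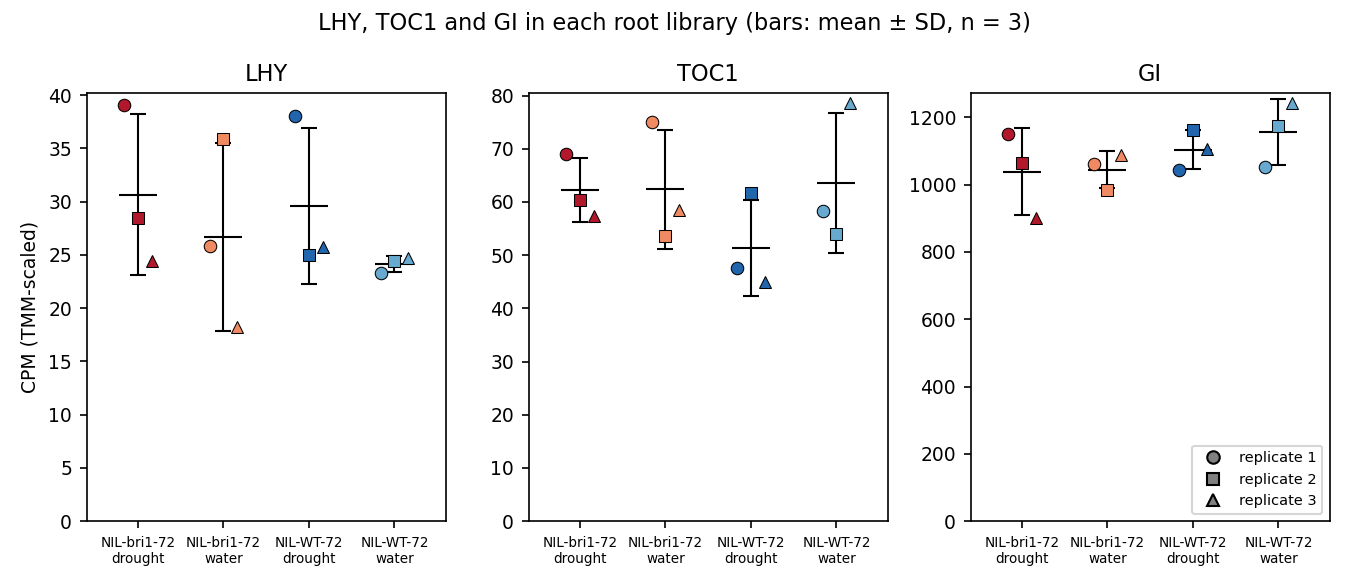
Normalised counts (CPM, TMM-scaled; y axis from 0) of LHY, TOC1 and GI in each library by group, with symbols for the replicate number and bars for mean ± SD (n = 3). LHY spreads from 18.3 to 39.1 CPM and the 3 NIL-WT-72 water libraries lie close together, while GI stays between 899.5 and 1243 CPM.

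LHY, the morning repressor, had 39.1, 28.4 and 24.5 CPM in the 3 NIL-bri1-72 drought libraries, against 25.8, 35.9 and 18.3 CPM in NIL-bri1-72 water. CPM is the count relative to the TMM-scaled library total. The groups overlapped, with replicate 1 as the highest droughted library and replicate 2 as the highest watered one. Means were 30.7 ± 7.56 CPM in drought and 26.7 ± 8.85 CPM in water (SD, n = 3 each).

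The estimated log2 change of LHY in this line was 0.20 (SE 0.25, 95% interval -0.35 to 0.75; adjusted p = 0.916 by edgeR). Its direction rested on single libraries, since leaving out drought replicate 1 gave -0.016 and leaving out water replicate 3 gave -0.0086. Leaving out water replicate 2 gave 0.47 (adjusted p = 0.848 by edgeR). Of all genes 0% passed for drought in NIL-bri1-72 by edgeR, where 1518 had an unadjusted p below 0.05 and DESeq2 called 202.

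In NIL-WT-72, LHY had 38.0, 24.99 and 25.7 CPM in drought, against 23.3, 24.4 and 24.7 CPM in water. All 3 droughted libraries lay above all 3 watered ones, which was so for 6.67% of all genes in this comparison. Replicate 1 was the high library, and the other droughted libraries lay just above the watered ones. The lowest droughted value, 24.99 CPM with a 95% Poisson interval of 23.3 to 26.8, and the highest watered value, 24.7 CPM with an interval of 22.8 to 26.8, could not be separated at this depth.

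LHY averaged 29.6 ± 7.34 CPM in droughted and 24.2 ± 0.762 CPM in watered NIL-WT-72 roots (SD, n = 3 each). The estimated log2 change was 0.29 (SE 0.25, 95% interval -0.26 to 0.84; adjusted p = 0.780 by edgeR). It shrank to 0.066 when drought replicate 1 of this line was left out. Of all genes 0.0144% passed by edgeR for drought in NIL-WT-72, that is 3 genes, and DESeq2 called 305.

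Averaged over both lines, LHY was 1.19-fold higher in drought, with a 95% interval of 0.907 to 1.55 (log2 0.25, SE 0.18; adjusted p = 0.568 by edgeR). In this contrast 1.28% of all genes passed by edgeR, that is 266 genes, and DESeq2 called 1023. The 6 droughted libraries ranged from 24.5 to 39.1 CPM and the 6 watered ones from 18.3 to 35.9 CPM, so they overlapped widely. The averaged log2 change of LHY was 0.13 with drought replicate 1 of NIL-WT-72 left out. It was 0.14 with either drought replicate 1 or water replicate 3 of NIL-bri1-72 left out, and 0.38 with water replicate 2 of NIL-bri1-72 left out.

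TOC1, the evening pseudo-response regulator, had 69.0, 60.4 and 57.4 CPM in the NIL-bri1-72 drought libraries, against 75.0, 53.6 and 58.5 CPM in NIL-bri1-72 water. The droughted values lay inside the range of the watered ones. Means were 62.2 ± 6.01 CPM in drought and 62.3 ± 11.2 CPM in water (SD, n = 3 each). The estimated log2 change was -0.0033 (SE 0.18, 95% interval -0.39 to 0.38; adjusted p = 0.999 by edgeR), so the interval reaches from 0.763-fold to 1.30-fold.

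In NIL-WT-72, TOC1 had 47.5, 61.7 and 45.0 CPM in drought, against 58.3, 53.9 and 78.6 CPM in water. Replicates 1 and 3 in drought lay below every watered library, whereas replicate 2 lay inside their range. Means were 51.4 ± 9.02 CPM in drought and 63.6 ± 13.2 CPM in water (SD, n = 3 each).

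This was the TOC1 estimate farthest from 0, a log2 change of -0.31 (SE 0.18, 95% interval -0.69 to 0.082; adjusted p = 0.632 and unadjusted p = 0.1103 by edgeR). A smaller absolute change was found for 75.7% of all genes in the same contrast. The TOC1 value was -0.13 with water replicate 3 of NIL-WT-72 left out and -0.46 with drought replicate 2 left out.

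Averaged over both lines, TOC1 was 0.898-fold in drought relative to water, with a 95% interval of 0.743 to 1.09 (log2 -0.15, SE 0.12; adjusted p = 0.621 by edgeR). This log2 change was -0.067 without water replicate 3 and -0.23 without drought replicate 2 of NIL-WT-72. The interaction, the drought effect in NIL-bri1-72 minus that in NIL-WT-72, tested whether the lines differed in this response. For TOC1 it was 0.30 (SE 0.25, 95% interval -0.24 to 0.85; adjusted p = 1.00 by edgeR), and it was 0.12 and 0.46 without these libraries. For LHY it was -0.091 (SE 0.35) and for GI 0.058 (SE 0.17), each with an adjusted p of 1.00 by edgeR. Of all genes 0% passed for the interaction, by edgeR and by DESeq2, and 232 had an unadjusted edgeR p below 0.05.

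GI, the partner of ZEITLUPE, varied least of these genes. It had 1152, 1065 and 899.5 CPM in NIL-bri1-72 drought, against 1060, 984.8 and 1090 CPM in NIL-bri1-72 water. The droughted libraries held both the highest and the lowest value of this line. Means were 1039 ± 128.3 CPM in drought and 1045 ± 54.1 CPM in water (SD, n = 3 each), with an estimated log2 change of -0.0084 (SE 0.12; adjusted p = 0.995 by edgeR).

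In NIL-WT-72, GI had 1045, 1162 and 1106 CPM in drought, against 1052, 1175 and 1243 CPM in water. The groups overlapped, and the highest watered library was replicate 3, in which TOC1 was also highest. The estimated log2 change was -0.067 (SE 0.12; adjusted p = 0.914 by edgeR). Averaged over both lines GI was 0.974-fold in drought relative to water (log2 -0.038, SE 0.086; adjusted p = 0.891 by edgeR). The 95% interval of 0.854 to 1.11 is the narrowest drought interval of these genes.

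**Figure D2:**
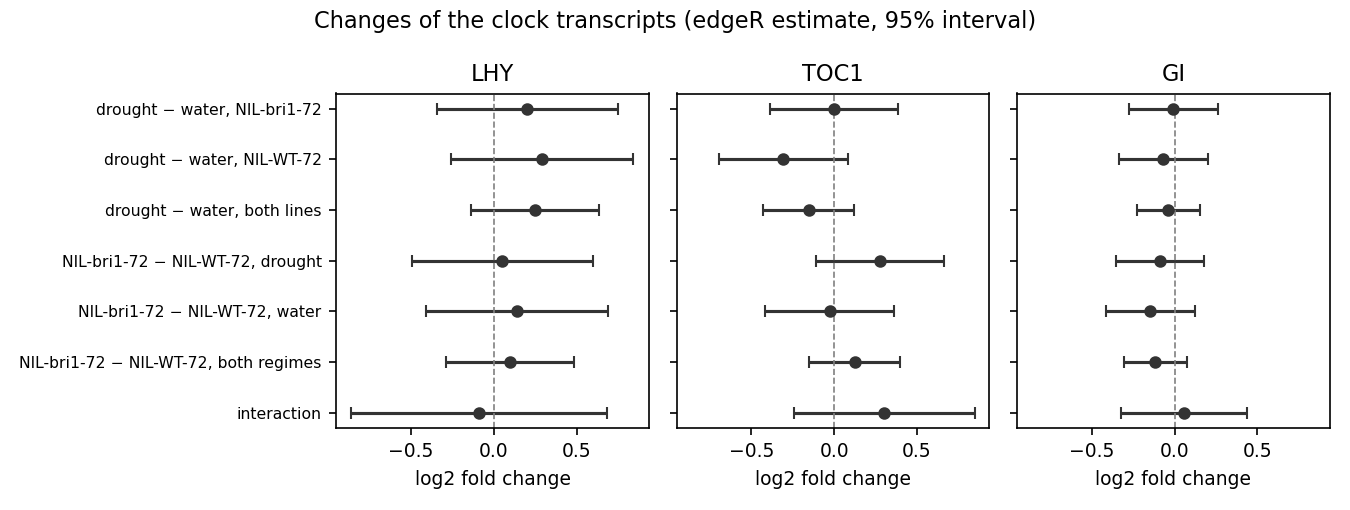
Log2 fold changes (x axis) of LHY, TOC1 and GI in the 7 contrasts, as edgeR estimates with 95% intervals over 12 libraries. Every interval includes 0, and the intervals of GI are the narrowest, for example -0.23 to 0.15 for drought over both lines.

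The lines were compared next within each regime. TOC1 in drought averaged 62.2 ± 6.01 CPM in NIL-bri1-72, against 51.4 ± 9.02 CPM in NIL-WT-72 (SD, n = 3 each), a log2 difference of 0.27 (SE 0.18, 95% interval -0.11 to 0.66; adjusted p = 1.00 by edgeR). Its libraries overlapped, since replicate 2 of NIL-WT-72 at 61.7 CPM lay above replicates 2 and 3 of NIL-bri1-72. In water the TOC1 difference was -0.029 (SE 0.18; adjusted p = 0.993 by edgeR), and it turned to 0.15 when water replicate 3 of NIL-WT-72 was left out.

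LHY differed between the lines by a log2 value of 0.051 in drought (SE 0.25; adjusted p = 1.00 by edgeR) and of 0.14 in water (SE 0.25; adjusted p = 0.960 by edgeR). Each sign turned with single libraries left out. The LHY difference in drought was -0.17 with drought replicate 1 of NIL-bri1-72 left out, and that in water was -0.13 with water replicate 2 of NIL-bri1-72 left out.

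GI had a lower mean in NIL-bri1-72 than in NIL-WT-72 in both regimes, at 1039 against 1104 CPM in drought and 1045 against 1157 CPM in water. Neither difference passed, with log2 values of -0.088 in drought (adjusted p = 1.00 by edgeR) and -0.15 in water (adjusted p = 0.905 by edgeR). Averaged over both regimes it was -0.12 (SE 0.086, 95% interval -0.31 to 0.072; adjusted p = 0.791 by edgeR), and the 6 libraries of one line overlapped those of the other.

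The averaged line difference was 0.097 for LHY (SE 0.18; adjusted p = 0.925 by edgeR) and 0.12 for TOC1 (SE 0.12; adjusted p = 0.846 by edgeR) on the log2 scale. Between the lines 0% of all genes passed by edgeR in drought, in water or on average. DESeq2 called 1, 4 and 32 genes there, and 515, 1091 and 1351 genes had an unadjusted edgeR p below 0.05.

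By group mean, LHY ran from NIL-bri1-72 drought (30.7 CPM) over NIL-WT-72 drought (29.6 CPM) and NIL-bri1-72 water (26.7 CPM) to NIL-WT-72 water (24.2 CPM). Each step was smaller than the larger SD of the groups it separates. For TOC1 the order was NIL-WT-72 water (63.6 CPM), NIL-bri1-72 water (62.3 CPM), NIL-bri1-72 drought (62.2 CPM) and NIL-WT-72 drought (51.4 CPM). The first and second TOC1 steps were smaller than the SDs of their groups, and the last step exceeded the SDs of both groups, which overlapped. For GI the order was NIL-WT-72 water (1157 CPM), NIL-WT-72 drought (1104 CPM), NIL-bri1-72 water (1045 CPM) and NIL-bri1-72 drought (1039 CPM), and neighbouring groups overlapped at each step.

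LHY and the evening genes peak at different times in a cycling plant, so their ratio within a library was also compared, which does not depend on library scaling. Ratios were compared between libraries only, since gene lengths were not used. The log2 ratio of LHY to TOC1 was -0.82, -1.08 and -1.23 in NIL-bri1-72 drought, against -1.54, -0.58 and -1.68 in NIL-bri1-72 water. In NIL-WT-72 it was -0.32, -1.30 and -0.81 in drought, against -1.32, -1.14 and -1.66 in water. In each line the droughted and watered libraries overlapped, and water replicate 2 of NIL-bri1-72 was the highest watered library.

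Averaged over both lines the log2 LHY/TOC1 ratio was -0.93 in drought and -1.32 in water, a difference of 0.39 (SE 0.24, n = 6 each). The exact permutation test within lines, two-sided with 400 relabelings, gave p = 0.125, or 0.278 adjusted over 3 ratios. The LHY/GI ratio was -5.17 in drought and -5.46 in water, a difference of 0.29 (SE 0.21; exact permutation p = 0.185, adjusted 0.278), and neither passed.

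Both LHY ratios depended on single libraries, in either direction. With water replicate 2 of NIL-bri1-72 left out, the differences were 0.56 for LHY/TOC1 and 0.43 for LHY/GI. Each had an adjusted exact permutation p of 0.0225, the lowest with a library left out. The adjustment covers the 3 ratios and not the choice among the libraries left out. With water replicate 3 of NIL-bri1-72 left out, the LHY/GI difference was 0.15, and with drought replicate 1 of NIL-WT-72 left out the differences were 0.27 for LHY/TOC1 and 0.17 for LHY/GI. With any of the 12 libraries left out in turn, the LHY/TOC1 difference ranged from 0.27 to 0.56 and the LHY/GI difference from 0.15 to 0.43, and the adjusted p of both from 0.0225 to 0.47.

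TOC1/GI, the ratio of the evening genes, was higher in NIL-bri1-72 than in NIL-WT-72 in drought without overlap, at -4.06, -4.14 and -3.97 against -4.46, -4.23 and -4.62. The exact permutation p was 0.1, the lowest that 3 against 3 allows, or 0.3 adjusted over 3 ratios. Random labels separate 3 against 3 this fully with a probability of 0.1, and each of 3 ratios was compared in each line and each regime. How many other gene pairs separate likewise was not computed. In water the TOC1/GI ratios of the lines overlapped, at -3.82, -4.20 and -4.22 in NIL-bri1-72 against -4.17, -4.44 and -3.98 in NIL-WT-72. Averaged over both regimes the TOC1/GI difference was 0.25 (SE 0.11; exact permutation p = 0.06, adjusted 0.18) and did not pass. For drought over both lines it was -0.11 (SE 0.11; exact permutation p = 0.355). The averaged line differences were -0.060 for LHY/TOC1 (exact permutation p = 0.79) and 0.19 for LHY/GI (exact permutation p = 0.37).

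**Figure D3:**
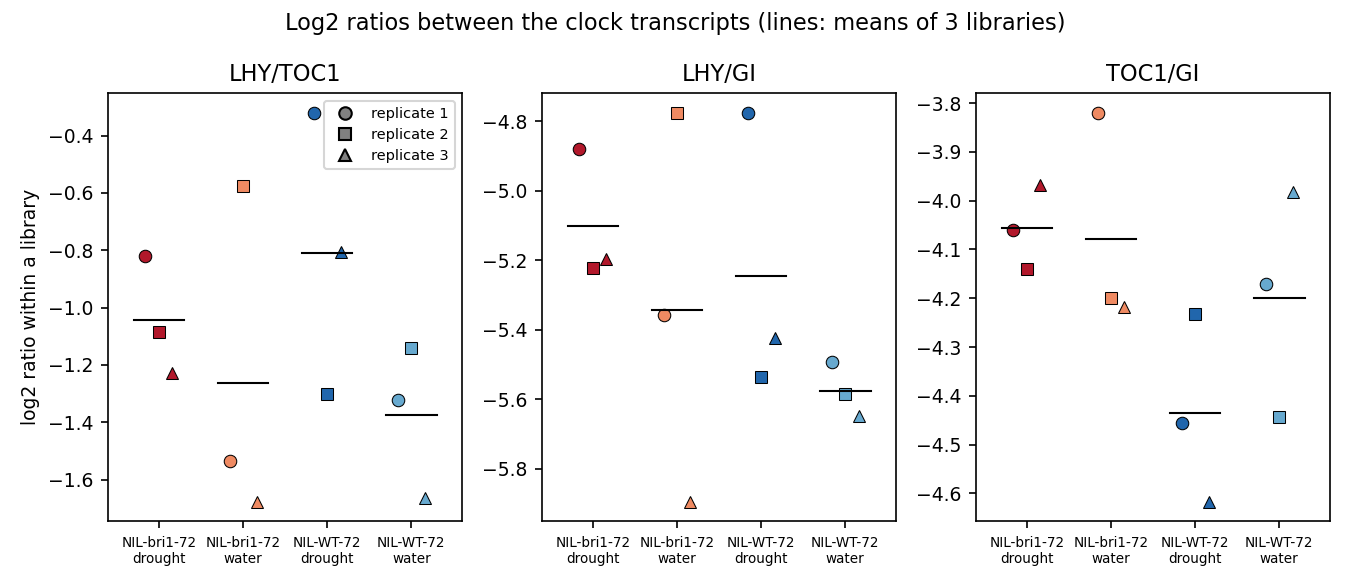
Log2 ratio of LHY to TOC1, LHY to GI and TOC1 to GI in each library by group, with symbols for the replicate number and lines for group means; each panel has its own y axis, which does not start at 0. Water replicate 2 of NIL-bri1-72 stands apart from its group for LHY/TOC1 at -0.58, its 3 LHY/GI values are about evenly spaced, and drought replicate 1 of NIL-WT-72 is the highest library of LHY/TOC1 at -0.32.

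The spread between replicates was then set against that of all other genes. LHY varied most, with a standard deviation around the group means of 0.34 log2 units, which is 1.27-fold. This exceeded the SD of 74.1% of all genes and of 85.4% of the 1000 genes nearest in mean log2 CPM, whose median SD was 0.17. LHY exceeded 64.9% of all genes without water replicate 3 of NIL-bri1-72 and 79.9% without water replicate 1 of NIL-WT-72. Its coefficient of variation was 33.2% in NIL-bri1-72 water, against a counting error of 3.34% to 4.70% in these libraries. In NIL-WT-72 water it was 3.15%, below the counting error of 4.08% to 4.65% there. These watered NIL-WT-72 libraries thus lay no farther apart than counting error alone can give.

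TOC1 had a standard deviation of 0.24 log2 units, above 55.1% of all genes and 78.6% of the 1000 nearest, whose median SD was 0.15. Its share of all genes was 48.6% without water replicate 1 of NIL-bri1-72 and 61.4% without water replicate 1 of NIL-WT-72. GI had 0.12 log2 units, above 18.8% of all genes and 20.0% of the 1000 nearest. These ranks of GI moved with single libraries of NIL-bri1-72, since the share of the 1000 nearest was 36.6% without drought replicate 2 and 10.9% without drought replicate 3, and the share of all genes 9.39% without drought replicate 3. For GI these nearest genes reach down to a mean of 179.5 CPM, against 1086 CPM for GI itself, because only 41 of them have a higher mean. No harvest hours are in the labels, so these spreads could not be set against the time of day.

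**Figure D4:**
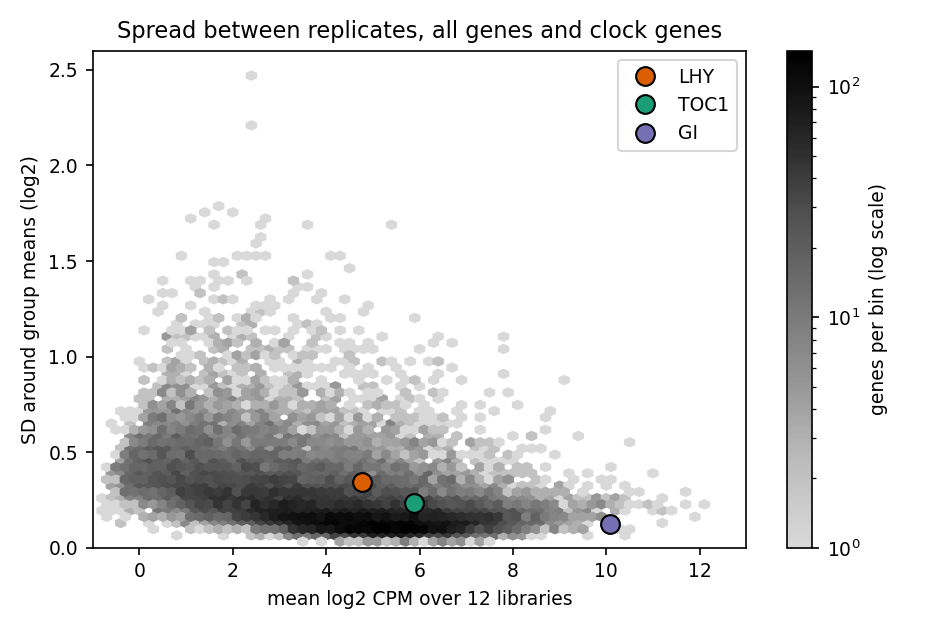
Standard deviation around the group means (y axis, log2 units) against mean log2 CPM over 12 libraries (x axis) for all genes, shaded by genes per bin on a log scale, with LHY, TOC1 and GI marked. LHY at 0.34 and TOC1 at 0.24 lie above the densest part of genes of like read number, and GI at 0.12 lies low on the axis.

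High LHY did not go with 1 pattern of TOC1 and GI. Drought replicate 1 of NIL-WT-72 had LHY 0.39 log2 units above its group mean, with TOC1 at -0.099 and GI at -0.078. Water replicate 2 of NIL-bri1-72 had LHY at 0.48, TOC1 at -0.20 and GI at -0.084. In drought replicate 1 of NIL-bri1-72 all of them lay above the group mean, LHY by 0.38, TOC1 by 0.15 and GI by 0.16.

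**Figure D5:**
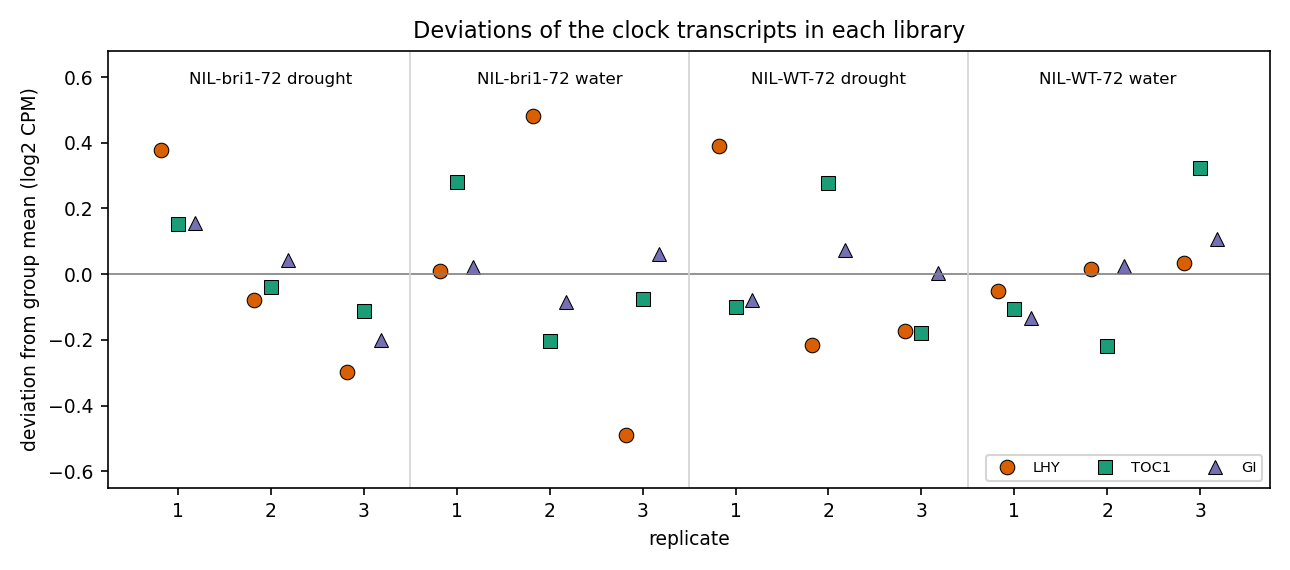
Deviation of log2 CPM from the group mean (y axis) for LHY, TOC1 and GI in each library (x axis, replicate number within group). LHY reaches 0.48 and -0.49 in water replicates 2 and 3 of NIL-bri1-72, while the 12 GI values stay between -0.20 and 0.16.

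LHY and TOC1 deviated in opposite directions in 4 of 12 libraries, LHY and GI in 6 and TOC1 and GI in 4. Over the 12 libraries the log2 CPM of LHY and TOC1 gave Pearson r = -0.13 (permutation p = 0.694) and Spearman rho = -0.021 (permutation p = 0.955). For LHY and GI r was -0.11 (permutation p = 0.741) and rho -0.17 (permutation p = 0.604). TOC1 and GI gave r = 0.36 (permutation p = 0.254) and rho = 0.43 (permutation p = 0.163). No pair passed: adjusted over the 3 pairs, each Pearson permutation p was 0.741, and the lowest Spearman permutation p was 0.488. These permutations shuffled all 12 libraries without regard to group, so they treat libraries of different groups as exchangeable.

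With the 2 libraries farthest from the median of the first gene left out, r was -0.12 for LHY and TOC1, -0.26 for LHY and GI and 0.24 for TOC1 and GI. For LHY and TOC1 it was 0.13 within the 6 droughted libraries and -0.13 within the 6 watered ones. For LHY and GI it was 0.29 in drought and -0.42 in water, and for TOC1 and GI 0.20 in drought and 0.46 in water. Split by line, r was 0.11 in NIL-bri1-72 and -0.46 in NIL-WT-72 for LHY and TOC1, and 0.16 in NIL-bri1-72 and -0.49 in NIL-WT-72 for LHY and GI. For TOC1 and GI it was 0.56 in NIL-bri1-72 and 0.71 in NIL-WT-72, and over 11 libraries it was 0.12 without water replicate 3 of NIL-WT-72. The difference in r between the lines was not tested. As a description, the deviations from the group means gave r = -0.029 for LHY and TOC1, 0.025 for LHY and GI and 0.58 for TOC1 and GI.

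Genes whose pattern over the 12 libraries was most like that of each clock gene were taken from 16217 other genes with a mean of at least 5 CPM, by Pearson r of log2 CPM. They are given by identifier and as a description, since the best of this many genes over 12 libraries have a high r in any case. For LHY they were Sobic.009G207600 and Sobic.003G100000, each at 0.87, and Sobic.010G229400 (-0.87) and Sobic.005G100500 (-0.86) ran most against it. For TOC1 they were Sobic.008G165000 and Sobic.009G009200, each at 0.87, with Sobic.009G133400 (-0.94) and Sobic.005G030400 (-0.89) opposite. GI had the closest matches, Sobic.001G114400 (0.95) and Sobic.002G391600 (0.94), with Sobic.001G403100 (-0.92) and Sobic.009G032600 (-0.90) opposite.

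By deviations from the group means, in which drought and line play no part, the closest genes were others. They were Sobic.006G228833 (0.95) and Sobic.001G417600 (0.93) for LHY, Sobic.003G273300 (0.96) and Sobic.009G213700 (0.95) for TOC1, and Sobic.005G059200 (0.98) and Sobic.007G071950 (0.96) for GI. The most opposite were Sobic.005G219600 (-0.91) and Sobic.006G105800 (-0.90) for LHY, Sobic.002G157100 (-0.97) and Sobic.009G131200 (-0.95) for TOC1, and Sobic.003G332000 (-0.98) and Sobic.002G133100 (-0.97) for GI. An r above 0.8 by these deviations was reached by 62 genes with LHY, 96 with TOC1 and 608 with GI. By log2 CPM it was reached by 25 with LHY, 38 with TOC1 and 151 with GI. Subtracting the group means leaves fewer independent values per gene, so a high r arises more easily by chance. How many genes would reach 0.8 by chance was not computed for either measure. Whether likeness is stronger once drought and line are removed was therefore not tested. GI had the most such genes by both measures, and this difference between the clock genes was not tested either.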

How the data were processed

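The submitters' processing notes name featureCounts 1.6.2, the aligner HISAT2 2.1.0, the trimmer Trimmomatic 0.38 and, for read quality, FastQC 0.11.2. Parameters, genome build, annotation and strand setting were not given in the sources used here. Reads of overlapping or antisense genes may therefore be shared. The authors deposited raw read counts per gene, with 20818 identifiers in 12 libraries, and 0 of them matched the 32945 entries of the RefSeq table used here. The lowest count per library lay between 8 and 13, the lowest in the shallowest library, so genes with fewer reads are not listed. Lists of other clock genes, of light signalling and of tissue markers had been planned by product name and were not applied, and no sequence is shown.

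Groups and replicate numbers came from the sample titles. Counts were tested with edgeR 4.0.16 (R 4.3.3): filterByExpr, which kept 20818 genes, TMM, 4 group means over all 12 libraries, quasi-likelihood tests, adjusted p below 0.05. The biological coefficient of variation was 0.209. Standard errors were the absolute log2 change over the square root of F. Log2 CPM used a prior count of 2. DESeq2 1.42.0 and limma 3.58.1 were alternatives. Correlations used 100000 resamples (numpy 2.4.6). The edgeR script was tested on simulated data. The clock genes and the tests were chosen with earlier results of these data known. The genes most like a clock gene follow a fixed rule, the 2 highest and the 2 lowest r among genes of at least 5 CPM.

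No replicates of a group agreed within sampling noise, with chi-square per degree of freedom of 16.4 to 67.2 over 12 pairs. Libraries with the same replicate number deviated together between drought and water in NIL-bri1-72 (r = 0.360, 0.190 and 0.125 across genes), each above 0.1. The reported fits and exact tests carry no block, and a fit with it changed no call of a clock gene. In NIL-WT-72 r was 0.0940, 0.219 and 0.270, of similar size, but replicate 1 fell just short of 0.1, so pairing was not assumed there. Drought replicate 1 of NIL-WT-72 had a higher r, 0.121, with a watered library of another number. For replicates 2 and 3 the highest such r was -0.0295 and -0.0534, and in NIL-bri1-72 it was at most 0.0429. The exact tests of the ratios were not repeated with pairing.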

Additional observations from a re-analysis of the deposited data

How the results depend on the processing

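LHY, TOC1 and GI stayed short of the threshold in each of 444 fold changes computed, the reported 21 and 423 alternatives, with adjusted p of 0.349 or more. The sign turned in 27 alternatives, 23 of them with a single library left out, and the cause was not tested. TOC1 for drought in NIL-bri1-72 was 0.0076 by limma voom, 0.00017 with the replicate block over 12 libraries and 0.0094 with the block in only the libraries compared. LHY between the lines in drought was -0.041 when water replicate 1 and drought replicate 3 of NIL-WT-72 were both left out. That fit and the block in only the libraries compared were chosen after seeing the data. The block changed no call of these genes, nor did DESeq2, relative log expression scaling or a filter at a mean of 1 CPM. Of the alternatives, 21 are the fit with no filter, which repeats the reported fit because the filter removed no gene and so tests nothing.

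With each library left out, log2 changes for drought in NIL-bri1-72 ranged from -0.016 to 0.47 for LHY, -0.10 to 0.15 for TOC1 and -0.096 to 0.085 for GI, and averaged drought from -0.23 to -0.067 for TOC1 and -0.080 to 0.0092 for GI. Line differences ranged from -0.17 to 0.27 for LHY and -0.18 to 0.0056 for GI in drought, from -0.13 to 0.35 for LHY and -0.18 to 0.15 for TOC1 in water, and from -0.040 to 0.21 for LHY on average. The interaction ranged from -0.31 to 0.18 for LHY, 0.12 to 0.46 for TOC1 and -0.032 to 0.15 for GI. The ratio differences for drought ranged from 0.27 to 0.56 (LHY/TOC1) and 0.15 to 0.43 (LHY/GI). They passed only without water replicate 2 of NIL-bri1-72, with no adjustment for the number of libraries left out in turn. The LHY/TOC1 line difference ranged from -0.23 to 0.062. Correlations ranged from -0.34 to 0.087 for LHY and TOC1, from -0.28 to 0.033 for LHY and GI and from 0.12 to 0.47 for TOC1 and GI.

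Counts over all genes depended on the setting. For drought in NIL-bri1-72, 0 genes became 202 by DESeq2, 4 in only the libraries compared, 0 to 14 with a library left out and 16 with both NIL-WT-72 libraries left out. For drought in NIL-WT-72, 3 genes became 305 by DESeq2, 1 by voom or in only the libraries compared, 27 with the block there, 0 to 55 with a library left out and 200 with both left out. For averaged drought, 266 became 1023 by DESeq2, 41 to 695 with a library left out and 933 with both left out. DESeq2 took the line counts from 0 to 1 in drought, 4 in water and 32 on average. The smallest change that these numbers of libraries could detect was not computed.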
